A study of Homo sapiens with 15 samples.

Results

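The 37 genes described here are ATF4, its best known transcriptional targets, and the genes of cytosolic aminoacyl-tRNA synthetases and of the tRNA exporter XPOT. They were chosen by name, with earlier results of these data known. All 37 were found among the 26364 gene rows of the deposited table. The RNA came from the established human myeloma line RPMI-8226 and was sequenced as strand-specific mRNA libraries. The cells had been treated with 100 nM KB528, which the series describes as an inhibitor of the lysine acetyltransferase (KAT) activity of p300, for 1, 3, 6 or 24 h, or with DMSO. Each of these 5 groups held 3 libraries, 15 in all, and the labels give the DMSO cells as WT and list KB528 in the genotype field of the treated cells. The DMSO libraries, which the table names as untreated at 0 h, are the only controls, so all 4 comparisons with DMSO share them and time in culture cannot be told apart from KB528. The labels name no separate cultures behind the 3 libraries of a group, and the p-values below therefore reflect variation among libraries that may be technical.

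ATF4 is a basic leucine zipper (bZIP) transcription factor whose protein is made when the initiation factor eIF2 is phosphorylated by 1 of the kinases PERK, GCN2, PKR or HRI, a pathway called the integrated stress response. With partners of the C/EBP family it binds composite elements in genes for amino acid synthesis, amino acid uptake and tRNA charging. It also induces its own brakes, among them TRIB3 and PPP1R15A. Plasma cells and myeloma cells, which secrete large amounts of antibody, are known to rely on this pathway and on the unfolded protein response. Control of ATF4 is largely translational, and the data here are mRNA levels only, in TPM, an abundance unit divided by transcript length that sums to 1000000 in each library.

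Elements of the ATF4 and C/EBP type are shown first, because they are what the pathway is known to read. In RefSeq promoter windows of GRCh38.p14, running from 250 bases before to 50 bases after the first listed start of each gene, 32 of the 37 members were found. The letters TGATGNAA, on either strand, occurred in 9 of these 32 windows (28.1%), against 1003 of the 27305 genes with a window (3.67%). The members include the best known ATF4 targets by choice, so this difference is not independent of how they were chosen. It was not tested. The matched sites, each written 5′ to 3′ along the strand that reads TGATGNAA, with these letters in capitals and up to 11 bases on each side, were as follows.
CHAC1 (chr15:40953251-40953280, minus strand): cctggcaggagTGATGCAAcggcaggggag
ASNS (chr7:97872458-97872487, minus strand): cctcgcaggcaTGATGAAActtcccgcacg
SLC3A2 (chr11:62881725-62881748, minus strand): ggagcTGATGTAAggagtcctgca
SLC7A1 (chr13:29595663-29595692, minus strand): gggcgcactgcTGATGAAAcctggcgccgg
AARS (chr16:70289675-70289704, plus strand): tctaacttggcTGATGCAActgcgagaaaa
CARS (chr11:3057407-3057436, plus strand): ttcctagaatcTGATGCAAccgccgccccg
IARS (chr9:92293692-92293721, plus strand): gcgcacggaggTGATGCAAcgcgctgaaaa
MARS (chr12:57488053-57488082, minus strand): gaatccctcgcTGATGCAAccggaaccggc
NARS (chr18:57621804-57621833, minus strand): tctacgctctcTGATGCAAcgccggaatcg
In 8 of the 9 sites the next base was C, and in SLC3A2 it was G. Positions relative to the start of transcription are those of the base of each site that comes first along the strand of the gene. For CHAC1, AARS, IARS, MARS, CARS and SLC3A2 this is the last base of the site as printed. The position was -209 in CHAC1, -187 in AARS, -68 in ASNS and -13 in IARS. It was -4 in MARS, -2 in CARS, 8 in SLC7A1, 15 in NARS and 38 in SLC3A2. The palindrome TGACGTCA, the cyclic AMP response element, occurred in 1 member window, that of PPP1R15A (3.12% of the member windows, against 540 of 27305 genes or 1.98%). The ER stress response element (ERSE), on either strand, occurred in 0 member windows and in 22 of the 27305 (0.0806%). A match describes letters in these windows only.

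The 250 bases before the start are printed for 3 members that moved differently below, CHAC1, whose level changed most, PPP1R15A and ASNS, with the matched letters in capitals (in CHAC1 they read TTGCATCA, the opposite strand of its site). The sequences are written 5′ to 3′ along the strand of the gene.
CHAC1 (chr15:40953221-40953470, plus strand): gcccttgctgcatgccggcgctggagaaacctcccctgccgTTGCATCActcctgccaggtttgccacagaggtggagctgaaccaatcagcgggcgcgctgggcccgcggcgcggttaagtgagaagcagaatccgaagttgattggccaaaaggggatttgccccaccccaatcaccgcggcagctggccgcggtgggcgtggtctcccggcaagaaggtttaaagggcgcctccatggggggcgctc
PPP1R15A (chr19:48872171-48872420, plus strand): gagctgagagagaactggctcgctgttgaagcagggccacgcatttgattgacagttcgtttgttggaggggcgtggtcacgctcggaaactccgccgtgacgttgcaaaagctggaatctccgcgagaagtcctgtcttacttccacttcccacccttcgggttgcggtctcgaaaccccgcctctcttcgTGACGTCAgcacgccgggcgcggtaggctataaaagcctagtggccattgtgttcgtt
ASNS (chr7:97872409-97872658, minus strand): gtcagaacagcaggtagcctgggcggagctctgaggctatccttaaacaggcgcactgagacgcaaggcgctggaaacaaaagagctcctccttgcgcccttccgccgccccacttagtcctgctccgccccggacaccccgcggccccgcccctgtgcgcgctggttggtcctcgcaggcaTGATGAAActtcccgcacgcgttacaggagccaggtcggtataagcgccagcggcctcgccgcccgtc

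In DMSO the members spanned a wide range of levels. ATF4 was the highest, at 457 ± 6.53 TPM (SD, n = 3 for this and all further means), followed by SHMT2 at 265 ± 10.8 and SLC7A5 at 263 ± 36.6 TPM, which overlapped. The 9 synthetase genes and XPOT lay between 34.7 TPM for SARS and 245 TPM for AARS. Of the feedback and signalling genes, TRIB3 stood at 41.2 ± 2.31 TPM, PPP1R15A at 6.79 ± 1.96, CHAC1 at 3.22 ± 0.374 and SESN2 at 13.2 ± 0.633 TPM. NUPR1, a stress-induced chromatin protein gene, ranged from 0.0903 to 0.463 TPM over the 15 libraries, and VLDLR, a lipoprotein receptor gene, from 0.0173 to 0.317 TPM. Both missed the filter of a mean of 1 TPM and were not tested, so 35 of 37 members entered the fit. Because TPM keeps no depth, the number of reads behind these values is unknown.

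Libraries of a group correlated with r between 0.995 and 0.998 across genes. All 11 plasma cell and myeloma markers found were above a mean of 1 TPM, from SLAMF7 (median 1.09 TPM) to MZB1 (median 2233 TPM). Their summed level was 4302 to 4450 TPM in DMSO, 4059 to 4318 at 1 h, 3734 to 3866 at 3 h, 3056 to 3280 at 6 h and 2342 to 2394 TPM at 24 h. Of markers of other cells, CD3D and CD2 (T cells) were at 0 in every library, the summed level of the 5 T cell markers was 1.37 to 3.80 TPM, and the summed level of the 5 myeloid markers was at most 3.43 TPM and of the 4 fibroblast markers at most 0.879 TPM. Of 4 epithelial markers, EPCAM stood at 95.9 to 122 TPM and the others at no more than 1.43 TPM. ERCC spike-ins took 9.35% to 16.6% of the TPM of a library, with a wider spread at 6 h (9.35% to 14.5%) than at 1 h (12.9% to 15.2%). The part of these features in the results below was not tested.

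Log2 fold changes were fitted with limma on log2(TPM + 1), a scale that understates the change of low genes, over 12002 genes, and a gene was called at a Benjamini-Hochberg adjusted p under 0.05. At 1 h 14 of 35 members were called higher than DMSO and 1 lower, where 15% and 7.57% of all genes tested were called higher and lower. The counts of higher and lower calls were 7 and 9 at 3 h (all genes 24.9% and 32%). They were 7 and 14 at 6 h (all genes 44.4% and 24.5%). At 24 h they were 8 and 8 (all genes 56.1% and 15.2%). The members' median log2 fold change over 1, 3, 6 and 24 h was 0.11, -0.00083, -0.053 and -0.028, and that of all genes 0.043, -0.042, 0.12 and 0.23. The median of the members was thus above that of all genes at 1 h and 3 h and below it at 6 h and 24 h. Between neighbouring times, 2 members were called higher at 3 h than at 1 h and 12 lower (all genes 15.2% and 31.8%). From 3 h to 6 h the calls were 5 and 17 (all genes 42.3% and 13.7%), and from 6 h to 24 h 14 and 8 (all genes 41% and 26%). Over the time course 27 of 35 members passed the moderated F test (77.1%), against 93.6% of all genes. In bulk RNA, a change in the share of some cells and a change of RNA per cell cannot be told apart.

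How many members passed depended on how the libraries were put on 1 scale. Median-ratio scaling shifted log2 fold changes against DMSO by -0.16 (6 h) and -0.19 (24 h). It called 12, 10, 4 and 6 members above DMSO at 1, 3, 6 and 24 h, where 15.4%, 27.2%, 32.1% and 38.5% of all genes were above, and 6, 11, 24 and 25 members below, where 14.8%, 35.2%, 38.2% and 29% of all genes were below. Spike-in scaling shifted them by -0.22 (3 h) and 0.19 (6 h). Its factors spread within groups (SD 0.12 to 0.32 on the log2 scale), and with them 5, 1, 3 and 1 members were called above DMSO over the 4 times (all genes 2.9%, 3.42%, 34.3% and 20.3%) and 0, 4, 2 and 2 below (all genes 1.02%, 21%, 8.29% and 5.47%). In GENCODE, 14 members have exons that overlap a gene on the opposite strand and 13 have named copies or pseudogenes, PSAT1 and MTHFD2 among them, so their values are less certain. Exons of ASNS, DDIT3, MARS and ATF5 also overlap a gene on the same strand, most widely in ASNS (1985 bases). Of the 68 calls of single members against DMSO, 61 passed with median-ratio scaling, 18 with spike-in scaling and 17 under every alternative that could be run for them. A filter of 5 TPM left out CHAC1, SLC7A11, CTH and ALDH1L2. The 17 calls belonged to ATF5 and CHAC1 (1, 3 and 6 h), STC2 and SLC38A2 (3 and 6 h) and PPP1R15A (1 and 24 h). The rest were SESN2 and DDIT3 (1 h), TRIB3 (3 h), and SLC7A5 and ALDH1L2 (24 h).

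**Figure D1:**
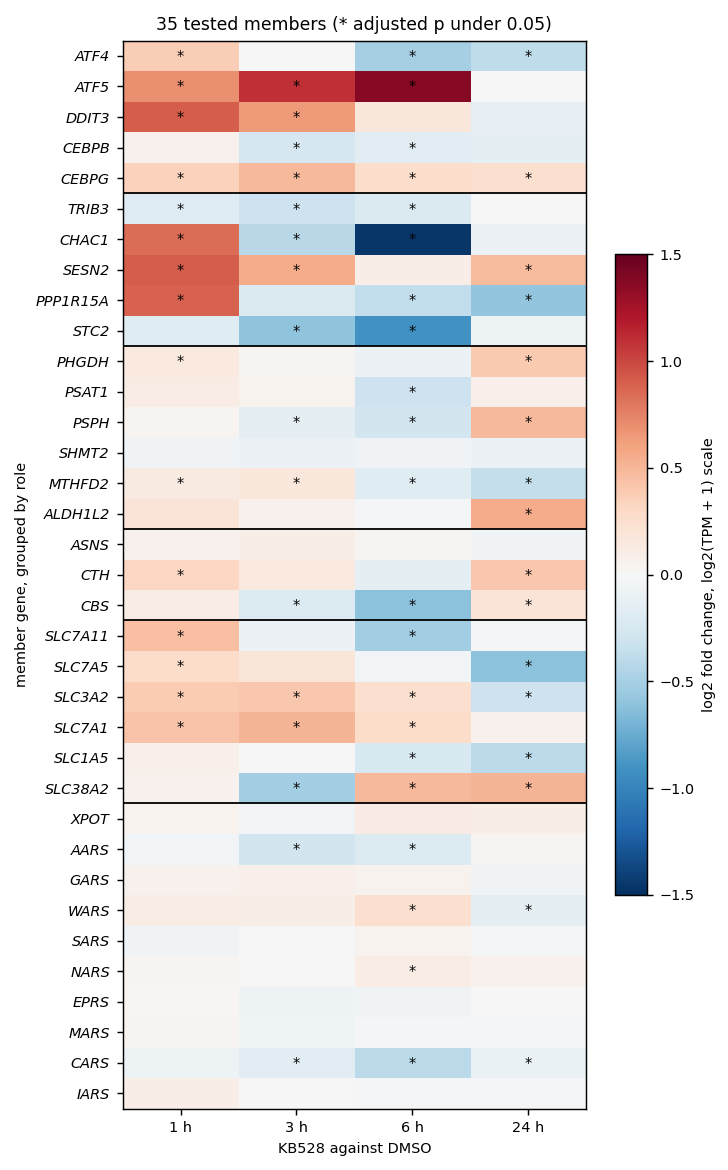
Log2 fold change of the 35 tested members, KB528 at 1, 3, 6 and 24 h against DMSO, on the log2(TPM + 1) scale. Rows are grouped by role. Black lines separate transcription factors, feedback and signalling genes, one-carbon enzymes, asparagine and cysteine enzymes, transporters and tRNA charging genes. Asterisks mark adjusted p under 0.05. At 1 h most rows of the transcription factors and feedback and signalling genes are red, and those of the synthetases at the bottom are pale. TRIB3 and STC2 have negative values at 1 h (-0.19 each), and CEBPB was not called (0.061).

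Of the 5 transcription factor genes tested, 4 were higher at 1 h and 0 lower (4 and 0 with median-ratio scaling and 2 and 0 with spike-in scaling). All genes tested had 15% higher and 7.57% lower at 1 h (15.4% and 14.8% with median-ratio scaling, 2.9% and 1.02% with spike-in scaling). ATF4 itself went up and then below DMSO. ATF4 was at 461, 449 and 460.5 TPM in the DMSO libraries, 591, 593 and 585 TPM at 1 h, 461, 463 and 456 TPM at 3 h, 313, 325 and 330.01 TPM at 6 h and 351, 355 and 346 TPM at 24 h. The 1 h libraries all lay above the DMSO libraries, the 3 h libraries overlapped them, and the 6 h and 24 h libraries all lay below. Against DMSO the log2 fold change was 0.37 at 1 h (SE 0.031, adjusted p = 6.02e-07), 0.011 at 3 h (adjusted p = 0.778), -0.50 at 6 h (SE 0.031, adjusted p = 2.65e-09) and -0.38 at 24 h (adjusted p = 7.69e-08). The falls between 1 h and 3 h (-0.36) and between 3 h and 6 h (-0.51) were called too. These 3 calls against DMSO were lost with spike-in scaling, which left the direction as it was, while leaving out any 1 library kept them.

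ATF5, a bZIP factor related to ATF4, had the largest log2 rise of the members against DMSO. ATF5 was at 14.1, 13.3 and 15.8 TPM in the DMSO libraries, 24.8, 24.8 and 22.4 TPM at 1 h, 32.8, 30.1 and 32.7 TPM at 3 h, 35.4, 38.2 and 42.2 TPM at 6 h and 14.2, 14.6 and 14.02 TPM at 24 h. Libraries at 1, 3 and 6 h were all above DMSO, and those at 24 h overlapped DMSO. The log2 fold change was 0.70 at 1 h, 1.10 at 3 h and 1.36 at 6 h (SE 0.071, adjusted p = 4.41e-10), and -0.0073 at 24 h (adjusted p = 0.93). From 6 h to 24 h ATF5 fell by 1.37 on the log2 scale (adjusted p = 5.34e-10), and this call, like the 3 rises, passed under every alternative. In GENCODE the exons of ATF5 share 626 bases with NUP62 on the opposite strand, and the sources used here do not say whether reads were counted by strand.

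DDIT3, which encodes the pro-apoptotic factor CHOP, rose early and returned. DDIT3 was at 10.3, 9.51 and 9.86 TPM in the DMSO libraries, 19.9, 18.6 and 20.002 TPM at 1 h, 15.5, 17.4 and 14.9 TPM at 3 h, 11.8, 10.6 and 11.1 TPM at 6 h and 10.4, 7.66 and 9.19 TPM at 24 h. All libraries at 1 h and 3 h were above DMSO, those at 6 h were also above it but closer, and those at 24 h overlapped it. The change was 0.91 at 1 h (SE 0.085, adjusted p = 1.76e-06), 0.64 at 3 h (adjusted p = 1.38e-05), 0.16 at 6 h (adjusted p = 0.0979) and -0.12 at 24 h (adjusted p = 0.223). The 3 h call was lost with spike-in scaling (0.43). At 24 h DDIT3 was called lower with median-ratio scaling (-0.29) and without KB528 24 h replicate 1 (-0.21). Exons of DDIT3 share 355 bases with MARS, which runs on the opposite strand at 188 ± 2.47 TPM at 1 h and 183 ± 13.3 TPM in DMSO, and the part of MARS reads in the DDIT3 values was not tested. CEBPG, which encodes a C/EBP factor that pairs with ATF4, was higher at every time. CEBPG was at 12.7, 11.8 and 12.8 TPM in the DMSO libraries, 16.02, 15.8 and 16.2 TPM at 1 h, 17.1, 17.7 and 18.6 TPM at 3 h, 14.5, 14.98 and 15.9 TPM at 6 h and 15.1, 15.3 and 14.4 TPM at 24 h. No treated library overlapped DMSO, and the log2 fold change was 0.34, 0.49, 0.26 and 0.25 at 1, 3, 6 and 24 h (adjusted p = 1.59e-06 at 3 h and 0.000673 at 24 h). With spike-in scaling none of the 4 times passed (0.29, 0.27, 0.44 and 0.23), and with median-ratio scaling 24 h did not (0.070).

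CEBPB, the C/EBP factor of acute phase and stress responses, fell at 3 h to 25.9 ± 0.152 TPM, against 31.1 ± 1.96 TPM in DMSO (log2 fold change -0.25, adjusted p = 0.00399). Its 6 h call (-0.16, adjusted p = 0.043) did not pass without DMSO replicate 1 (-0.12), DMSO replicate 3 (-0.15) or KB528 6 h replicate 1 (-0.093), and with spike-in scaling its sign turned (0.026). With the replicate number as a block it did not pass either (adjusted p = 0.0526). At 24 h it was not called (-0.15, adjusted p = 0.0507), but passed without DMSO replicate 2 (-0.20) or KB528 24 h replicate 2 (-0.22).

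**Figure D2:**
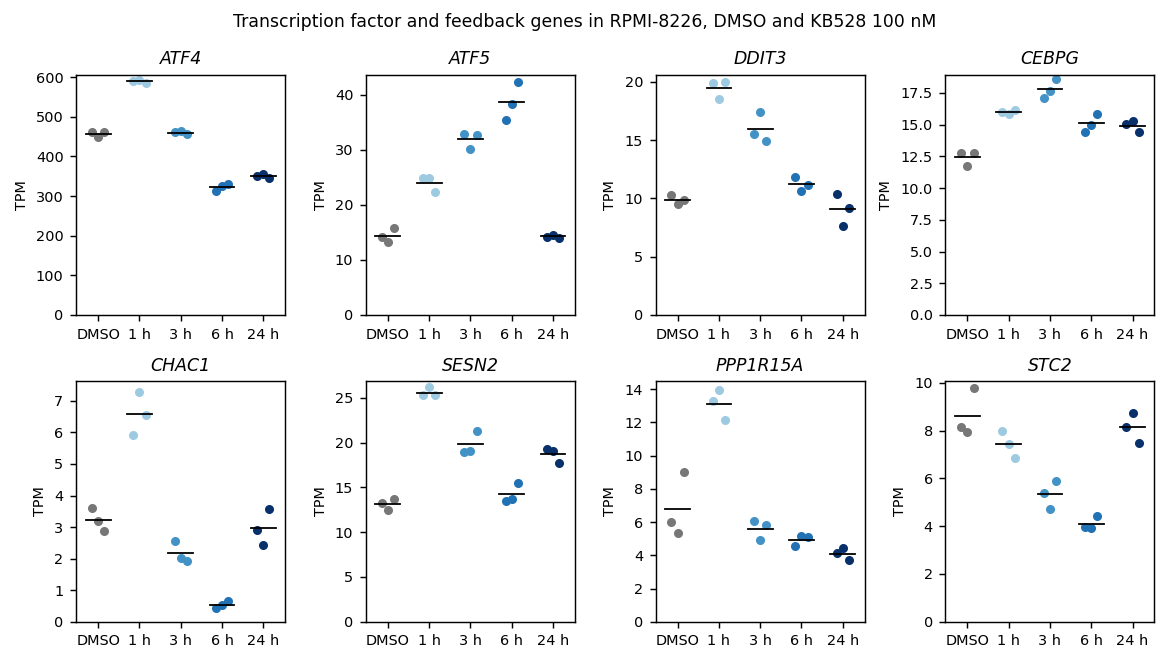
TPM in DMSO and at 1, 3, 6 and 24 h of 100 nM KB528, with linear axes from 0. Shown are 4 transcription factor genes (ATF4, ATF5, DDIT3, CEBPG) and 4 feedback and signalling genes (CHAC1, SESN2, PPP1R15A, STC2). Each point is 1 library and each line the mean of 3; ATF4, DDIT3, CHAC1, SESN2 and PPP1R15A are highest at 1 h, while ATF5 is highest at 6 h.

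Of the 5 feedback and signalling genes tested, 3 rose at 1 h and 1 fell, and at 6 h 0 were higher and 4 lower. The 1 h counts were 3 and 2 with median-ratio scaling and 3 and 0 with spike-in scaling, and those at 6 h 0 and 4 with median-ratio scaling and 0 and 2 with spike-in scaling. All genes tested had 15% higher and 7.57% lower at 1 h, and 44.4% and 24.5% at 6 h. With median-ratio scaling these shares were 15.4% and 14.8%, and 32.1% and 38.2%. With spike-in scaling they were 2.9% and 1.02%, and 34.3% and 8.29%. CHAC1, which encodes a glutathione-degrading enzyme and carries the composite element printed above, had the widest swing of all members. CHAC1 was at 3.61, 3.19 and 2.86 TPM in the DMSO libraries, 5.90, 7.27 and 6.54 TPM at 1 h, 2.56, 2.01 and 1.92 TPM at 3 h, 0.421, 0.525 and 0.661 TPM at 6 h and 2.92, 2.44 and 3.56 TPM at 24 h. Its libraries were all above DMSO at 1 h and all below at 3 h and 6 h, and at 24 h they overlapped DMSO. The log2 fold change was 0.84 at 1 h (adjusted p = 7.4e-05), -0.42 at 3 h (adjusted p = 0.00537) and -1.46 at 6 h (SE 0.11, adjusted p = 3.09e-08). At 6 h its mean in TPM was 0.166 times that in DMSO. The return between 6 h and 24 h (1.36, adjusted p = 5.73e-08) was called as well.

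SESN2, which encodes a leucine sensor that restrains mTORC1, rose at 1 h. SESN2 was at 13.3, 12.5 and 13.8 TPM in the DMSO libraries, 25.3, 26.2 and 25.3 TPM at 1 h, 18.96, 19.1 and 21.3 TPM at 3 h, 13.4, 13.7 and 15.5 TPM at 6 h and 19.3, 19.01 and 17.7 TPM at 24 h. At 1, 3 and 24 h every library was above DMSO, and at 6 h the groups overlapped. The change was 0.91 at 1 h (SE 0.063, adjusted p = 7.48e-08), 0.55 at 3 h, 0.10 at 6 h (adjusted p = 0.167) and 0.47 at 24 h (adjusted p = 9.62e-06). The 3 h and 24 h calls were lost with spike-in scaling (0.34 and 0.46). PPP1R15A, which encodes GADD34, the phosphatase subunit that reverses eIF2 phosphorylation, also peaked at 1 h. PPP1R15A was at 6.02, 5.34 and 9.02 TPM in the DMSO libraries, 13.3, 13.95 and 12.1 TPM at 1 h, 6.07, 4.95 and 5.81 TPM at 3 h, 4.53, 5.15 and 5.11 TPM at 6 h and 4.13, 4.42 and 3.71 TPM at 24 h. Its 1 h libraries were above and its 6 h and 24 h libraries below all DMSO libraries, with log2 fold changes of 0.88 at 1 h (adjusted p = 0.000169) and -0.59 at 24 h (adjusted p = 0.000834). DMSO replicate 3 stood higher than the other two. The 6 h call (-0.37) was lost without it (-0.17) or without KB528 6 h replicate 1 (-0.32), and 3 h (-0.21) passed without DMSO replicate 2 (-0.35).

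STC2, which encodes the secreted glycoprotein stanniocalcin 2, fell at 3 h and 6 h. STC2 was at 8.14, 7.92 and 9.77 TPM in the DMSO libraries, 7.99, 7.42 and 6.87 TPM at 1 h, 5.39, 4.73 and 5.88 TPM at 3 h, 3.96, 3.93 and 4.42 TPM at 6 h and 8.17, 8.75 and 7.47 TPM at 24 h. The 3 h and 6 h libraries were all below DMSO, and the 24 h libraries overlapped it. It fell by 0.60 at 3 h and by 0.91 at 6 h on the log2 scale (adjusted p = 3.82e-05 and 3.47e-07). TRIB3, which encodes a pseudokinase that binds ATF4, was lower at 1, 3 and 6 h, with 33.01 ± 1.14 TPM at 3 h, against 41.2 ± 2.31 TPM in DMSO (log2 fold change -0.31, adjusted p = 0.000224). It was the only member called lower at 1 h (-0.19, adjusted p = 0.024), which did not pass without DMSO replicate 3 (-0.14), KB528 1 h replicate 1 (-0.18) or KB528 1 h replicate 2 (-0.18).

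The 6 enzymes of serine, glycine and one-carbon metabolism had 3 calls below DMSO at 6 h and 0 above, where 24.5% of all genes were lower and 44.4% higher. At 24 h 3 stood above DMSO and 1 below, where 56.1% of all genes were called higher and 15.2% lower. The 24 h counts were 3 and 3 with median-ratio scaling (all genes 38.5% and 29%) and 1 and 0 with spike-in scaling (all genes 20.3% and 5.47%). PSPH, which encodes the last enzyme of serine synthesis, had the smallest F test p of them. PSPH was at 48.6, 45.1 and 48.9 TPM in the DMSO libraries, 47.8, 48.6 and 50.4 TPM at 1 h, 42.8, 41.1 and 44.3 TPM at 3 h, 39.4, 38.1 and 40.2 TPM at 6 h and 67.5, 65.5 and 68.2 TPM at 24 h. The 24 h libraries stood above all others, and the 6 h libraries were all below DMSO. The log2 fold change was -0.15 at 3 h, -0.27 at 6 h (adjusted p = 7.06e-05) and 0.49 at 24 h (SE 0.045, adjusted p = 2.5e-07). The 3 h call was lost when the spike-ins were taken out of the total (-0.12) and when only the compared groups were fitted (-0.15). PHGDH, which encodes the first enzyme of the same pathway, was also highest at 24 h. PHGDH was at 38.1, 38.8 and 41.8 TPM in the DMSO libraries, 43.95, 43.5 and 44.5 TPM at 1 h, 42.3, 39.2 and 40.2 TPM at 3 h, 35.9, 36.5 and 39.1 TPM at 6 h and 53.5, 52.5 and 51.3 TPM at 24 h. Only at 1 h and 24 h did its libraries all lie above DMSO, with changes of 0.15 and 0.40 (adjusted p = 0.0353 and 3.34e-06). The 1 h call was lost without any of DMSO replicate 1, DMSO replicate 2 or the 3 KB528 libraries (0.12 to 0.16), and 6 h (-0.088) passed without KB528 6 h replicate 3 (-0.13).

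PSAT1, whose product acts between these enzymes, dipped at 6 h. PSAT1 was at 52.7, 47.4 and 53.4 TPM in the DMSO libraries, 55.3, 53.3 and 57.2 TPM at 1 h, 52.1, 52.6 and 53.8 TPM at 3 h, 41.7, 39.98 and 41.6 TPM at 6 h and 55.4, 53.2 and 53.4 TPM at 24 h. The 6 h libraries were all below DMSO and the other treated groups overlapped it (log2 fold change -0.31 at 6 h, adjusted p = 3.76e-05, and 0.39 from 6 h to 24 h). MTHFD2, a mitochondrial folate enzyme gene, was lower at 6 h and 24 h. MTHFD2 was at 211, 192 and 205 TPM in the DMSO libraries, 224, 221 and 222 TPM at 1 h, 225, 234 and 224 TPM at 3 h, 176, 175 and 183 TPM at 6 h and 161, 155 and 158 TPM at 24 h. The 1 h and 3 h libraries were all above DMSO, and the 6 h and 24 h libraries all below. The log2 fold changes over the first 3 times were 0.13, 0.17 and -0.19, and that at 24 h was -0.36 (SE 0.039, adjusted p = 1.3e-06). Its 1 h call was lost without DMSO replicate 2 (0.093) or any of the 3 KB528 libraries (0.13 to 0.14), and spike-in scaling turned the sign at 3 h (-0.057) and 6 h (0.0024). Exons of MTHFD2 share 1324 bases with SLC4A5 on the opposite strand. ALDH1L2, its low-level mitochondrial neighbour in folate metabolism, rose at 24 h to 1.93 ± 0.143 TPM, against 1.004 ± 0.191 TPM in DMSO (log2 fold change 0.55, adjusted p = 5.52e-05). SHMT2, the mitochondrial serine hydroxymethyltransferase gene, passed at no time, with log2 fold changes between -0.087 and -0.052.

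The 3 genes of asparagine and cysteine synthesis differed. CBS, which encodes the first enzyme of transsulfuration, fell and then came back. CBS was at 189, 177 and 202 TPM in the DMSO libraries, 213, 212 and 190.4 TPM at 1 h, 164, 153 and 173 TPM at 3 h, 116, 123 and 132 TPM at 6 h and 216, 226 and 209.5 TPM at 24 h. The 6 h libraries were all far below DMSO, and those at 24 h all above it. It fell by 0.61 at 6 h (adjusted p = 7.98e-07) and from 6 h to 24 h changed by 0.81 (SE 0.065, adjusted p = 3.91e-08). Its smaller 3 h (-0.21) and 24 h (0.20) calls depended on single libraries. The 3 h call was lost without DMSO replicate 3 (-0.16) or KB528 3 h replicate 2 (-0.16), and the 24 h call without DMSO replicate 2 (0.15) or KB528 24 h replicate 2 (0.17). CTH, which encodes the next enzyme, was low. CTH was at 4.11, 4.19 and 4.19 TPM in the DMSO libraries, 6.04, 4.93 and 5.32 TPM at 1 h, 4.29, 5.24 and 4.69 TPM at 3 h, 3.62, 3.50 and 3.99 TPM at 6 h and 5.50, 6.05 and 5.92 TPM at 24 h. All libraries at 1, 3 and 24 h were above DMSO and those at 6 h below. Called were 1 h (0.31, adjusted p = 0.00906) and 24 h (0.40, adjusted p = 0.000272), but not 3 h (0.15, adjusted p = 0.11) or 6 h (-0.14, adjusted p = 0.131). The 1 h call was lost without KB528 1 h replicate 1 (0.25, adjusted p = 0.0517).

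ASNS, which encodes asparagine synthetase and is a textbook ATF4 target with a composite element in its promoter, was called at no time in the fit as described. ASNS was at 81.2, 78.1 and 78.3 TPM in the DMSO libraries, 82.7, 81.4 and 84.7 TPM at 1 h, 81.9, 88.3 and 83.4 TPM at 3 h, 81.02, 79.7 and 83.9 TPM at 6 h and 76.1, 77.9 and 75.6 TPM at 24 h. The 1 h and 3 h libraries were all just above DMSO, those at 24 h all just below, and those at 6 h overlapped it. The largest log2 fold change against DMSO was 0.093 at 3 h (95% interval 0.0089 to 0.18, adjusted p = 0.0559). It passed at 3 h without DMSO replicate 1 (0.11), without KB528 3 h replicate 1 (0.12), with spike-ins out of the total (0.13) and with no filter. With median-ratio scaling it was called lower at 6 h (-0.12, against 0.042) and at 24 h (-0.23). In GENCODE, 1985 of the 4455 exonic bases of ASNS are shared with AC079781.5 on the same strand. The part of this overlap in the ASNS values was not tested.

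Of the 6 amino acid transporter genes, 4 were higher at 1 h and 0 lower, and at 24 h 1 was higher and 3 lower. The 1 h counts were 4 and 0 with median-ratio scaling and 0 and 0 with spike-in scaling, and those at 24 h 1 and 4 with median-ratio scaling and 0 and 1 with spike-in scaling. All genes tested had 15% higher and 7.57% lower at 1 h, and 56.1% and 15.2% at 24 h. With median-ratio scaling these shares were 15.4% and 14.8%, and 38.5% and 29%. With spike-in scaling they were 2.9% and 1.02%, and 20.3% and 5.47%. SLC3A2, which encodes the heavy chain shared by several transporters, rose for 6 h and then fell below DMSO. SLC3A2 was at 233, 226 and 247 TPM in the DMSO libraries, 304, 307 and 308 TPM at 1 h, 312, 307 and 319.8 TPM at 3 h, 268, 279 and 289 TPM at 6 h and 186, 193 and 191 TPM at 24 h. No treated group overlapped DMSO. The log2 fold change was 0.38 at 1 h, 0.41 at 3 h (SE 0.039, adjusted p = 4.8e-07), 0.24 at 6 h and -0.31 at 24 h (adjusted p = 6.63e-06). Its partner SLC7A5, the light chain that with SLC3A2 forms the leucine transporter LAT1, fell at 24 h. SLC7A5 was at 260.5, 227 and 301 TPM in the DMSO libraries, 320.5, 319 and 314 TPM at 1 h, 298, 263 and 330.1 TPM at 3 h, 236, 250.04 and 276 TPM at 6 h and 171, 174 and 164 TPM at 24 h. The 24 h libraries were all below DMSO (log2 fold change -0.62, SE 0.090, adjusted p = 2.09e-05). The 1 h rise (0.28, adjusted p = 0.035) did not pass without DMSO replicate 1 (0.28), DMSO replicate 2 (0.18) or any of the 3 KB528 libraries (0.27 to 0.29). At 3 h (0.18) it passed without DMSO replicate 3 (0.28) or KB528 3 h replicate 2 (0.26).

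SLC7A11, the light chain that pairs with SLC3A2 in the cystine transporter, was low. SLC7A11 was at 4.17, 3.46 and 4.54 TPM in the DMSO libraries, 5.97, 5.53 and 6.14 TPM at 1 h, 3.88, 3.40 and 4.005 TPM at 3 h, 2.51, 2.56 and 2.49 TPM at 6 h and 4.33, 3.74 and 3.76 TPM at 24 h. Its 1 h libraries were above and its 6 h libraries below all DMSO libraries, with changes of 0.45 (adjusted p = 0.00123) and -0.52 (adjusted p = 5.35e-05). SLC38A2, which encodes the glutamine transporter SNAT2, dipped at 3 h and then rose. SLC38A2 was at 98.5, 80.3 and 97.1 TPM in the DMSO libraries, 94.4, 97.6 and 94.8 TPM at 1 h, 61.5, 63.8 and 66.9 TPM at 3 h, 128, 126 and 133 TPM at 6 h and 134, 129 and 129 TPM at 24 h. At 3 h all libraries were below DMSO, and at 6 h and 24 h all were above. The log2 fold change was 0.062 at 1 h (adjusted p = 0.496), -0.51 at 3 h (adjusted p = 5.51e-06), 0.49 at 6 h and 0.51 at 24 h (SE 0.062, adjusted p = 4.18e-06), and the step from 3 h to 6 h was 1.00. The 24 h call was lost with spike-in scaling (0.49).

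SLC7A1, which encodes a transporter of arginine and lysine, rose to 50.4 ± 6.34 TPM at 3 h, against 35.1 ± 5.88 TPM in DMSO (log2 fold change 0.51, adjusted p = 0.00052). Its 6 h call (0.28) was lost without DMSO replicate 2 (0.16) or KB528 6 h replicate 3 (0.24), and with median-ratio scaling (0.12). SLC1A5, the glutamine exchanger gene, fell to 165 ± 3.81 TPM at 24 h, against 217 ± 13.1 TPM in DMSO (log2 fold change -0.39, adjusted p = 8e-06).

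**Figure D3:**
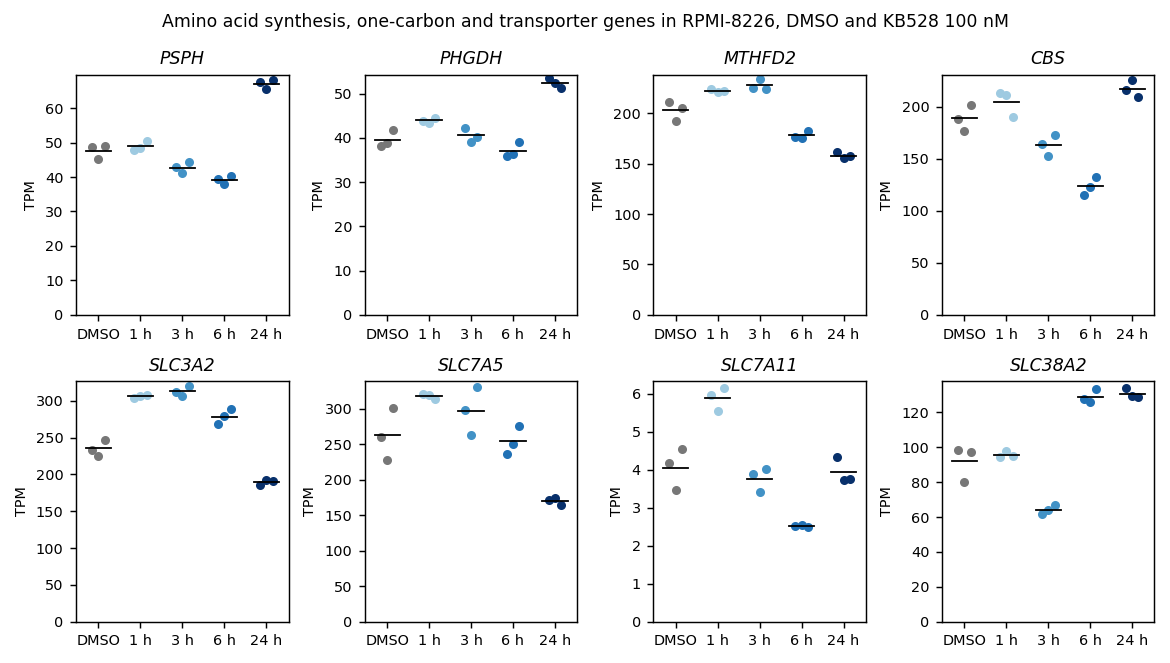
TPM of 3 serine and one-carbon enzyme genes (PSPH, PHGDH, MTHFD2), of CBS and of 4 transporter genes (SLC3A2, SLC7A5, SLC7A11, SLC38A2) in DMSO and at 1, 3, 6 and 24 h of 100 nM KB528, with linear axes from 0. Each point is 1 library and each line the mean of 3; PSPH, PHGDH and CBS are lowest at 6 h and highest at 24 h, SLC3A2 and SLC7A5 are lowest at 24 h.

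Among the 9 synthetase genes and XPOT, 0.40 was the size of the largest log2 fold change. At 1 h 0 of 10 were called in either direction, where 15% of all genes were called higher and 7.57% lower. Later calls were 2 below DMSO at 3 h (AARS, CARS), 2 above (WARS, NARS) and 2 below (AARS, CARS) at 6 h, and 2 below at 24 h (WARS, CARS). With median-ratio scaling 0, 2, 0 and 0 were above DMSO and 3, 3, 7 and 10 below, and with spike-in scaling 0, 0, 0 and 0 above and 0, 0, 0 and 0 below. All genes tested had 24.9%, 44.4% and 56.1% above DMSO at 3, 6 and 24 h, and 32%, 24.5% and 15.2% below. Over the 4 times, median-ratio scaling called 15.4%, 27.2%, 32.1% and 38.5% of all genes above and 14.8%, 35.2%, 38.2% and 29% below. Spike-in scaling called 2.9%, 3.42%, 34.3% and 20.3% above and 1.02%, 21%, 8.29% and 5.47% below. At an unadjusted p under 0.05, 1 of the 10 passed at 1 h by limma, the only tool run. At 1 h their log2 fold changes had 95% intervals within -0.16 and 0.22, and over all 4 times the largest change in size was that of CARS at 6 h. In the fit as described, 8 members were called at no time against DMSO. The share of all genes called at no time was not counted, so these 8 have no background. Of these, 6 were in this group, namely XPOT, GARS, SARS, EPRS, MARS and IARS, and the others were SHMT2 and ASNS. The intervals of the 6 uncalled genes at 6 h reached from -0.16 to 0.24.

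CARS, the cysteinyl-tRNA synthetase gene, had the largest fall of the group. CARS was at 42.1, 40.6 and 43.4 TPM in the DMSO libraries, 41.1, 39.1 and 39.5 TPM at 1 h, 36.9, 37.2 and 37.5 TPM at 3 h, 30.4, 31.4 and 32.8 TPM at 6 h and 39.1, 39.8 and 38.1 TPM at 24 h. The 3 h, 6 h and 24 h libraries were all below DMSO, with log2 fold changes of -0.17, -0.40 and -0.10 (adjusted p = 0.00294, 8.3e-07 and 0.0384). The 24 h value was no longer called without DMSO replicate 1 (-0.10), DMSO replicate 3 (-0.082), KB528 24 h replicate 1 (-0.11) or KB528 24 h replicate 3 (-0.088). AARS, for alanine, was lower at 3 h and 6 h. AARS was at 243, 229 and 262 TPM in the DMSO libraries, 242, 237 and 234 TPM at 1 h, 201, 193 and 211 TPM at 3 h, 200.4, 214 and 222 TPM at 6 h and 254, 252 and 248 TPM at 24 h. Both groups lay below every DMSO library, with changes of -0.28 (adjusted p = 0.000274) and -0.20 (adjusted p = 0.00213), and at 24 h AARS was at 0.041 (adjusted p = 0.484). With median-ratio scaling AARS was called lower at 24 h too (-0.15).

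WARS, the tryptophanyl-tRNA synthetase gene, which interferon is known to induce, had the larger of the 2 rises called at 6 h. WARS was at 56.7, 57.6 and 62.8 TPM in the DMSO libraries, 63.3, 64.7 and 63.2 TPM at 1 h, 63.2, 61.5 and 65.1 TPM at 3 h, 66.6, 71.7 and 71.1 TPM at 6 h and 55.1, 54.8 and 50.6 TPM at 24 h. The 1 h and 6 h libraries were all above and the 24 h libraries all below DMSO. The change was 0.24 at 6 h (adjusted p = 0.0005) and -0.14 at 24 h (adjusted p = 0.0195), and -0.38 between them (adjusted p = 6.64e-06). The 6 h call was lost with median-ratio (0.078) and spike-in scaling (0.43). The 24 h call was lost with spike-in scaling (-0.16), with only the compared groups (adjusted p = 0.064), and without DMSO replicate 3 (-0.095) or KB528 24 h replicate 3 (-0.10). Without DMSO replicate 3, WARS also passed at 1 h (0.15) and 3 h (0.14). GARS, for glycine, overlapped DMSO at 1, 3, 6 and 24 h. GARS was at 231, 215 and 241 TPM in the DMSO libraries, 239.95, 236 and 241 TPM at 1 h, 240.1, 239.8 and 242 TPM at 3 h, 227, 235 and 248 TPM at 6 h and 222, 223 and 218 TPM at 24 h. Its log2 fold change against DMSO lay between -0.051 and 0.073, and it was called at no time in the fit as described. With median-ratio scaling GARS was called higher at 3 h (0.068) and lower at 6 h (-0.12) and 24 h (-0.24). It also passed at 3 h with spike-ins out of the total (0.11) or without DMSO replicate 3 (0.11). At 24 h it passed without DMSO replicate 2 (-0.095). NARS, for asparagine, was called at 6 h (0.11, adjusted p = 0.0323), but not without DMSO replicate 2 (0.062), KB528 6 h replicate 2 (0.12) or KB528 6 h replicate 3 (0.099), and its sign turned with median-ratio scaling (-0.049). At 24 h NARS (0.065) passed without DMSO replicate 1 (0.11).

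Other synthetase genes were read from lists beside the members. Of 14 genes of other cytosolic synthetases and their scaffold proteins there were 0, 2, 5 and 2 genes called above DMSO and 0, 1, 4 and 4 below over 1, 3, 6 and 24 h, with median log2 fold changes of -0.011, -0.012, -0.0054 and -0.017. With median-ratio scaling 0, 2, 1 and 0 were above DMSO and 2, 2, 8 and 10 below, and with spike-in scaling 0, 0, 1 and 0 above and 0, 0, 0 and 0 below. HARS, for histidine, rose at 6 h to 90.2 ± 3.70 TPM, against 64.5 ± 2.57 TPM in DMSO (0.48), AIMP2, a scaffold protein gene, changed by 0.24 at 6 h and -0.27 at 24 h, and FARSB, for phenylalanine, by -0.26 at 24 h. Of 17 mitochondrial synthetase genes there were 2, 5, 12 and 9 genes called above DMSO and 1, 3, 0 and 1 below over 1, 3, 6 and 24 h, with medians of 0.031, 0.087, 0.25 and 0.17, against the medians of all genes given above. With median-ratio scaling 2, 7, 7 and 5 were above DMSO and 2, 4, 5 and 5 below, and with spike-in scaling 0, 0, 8 and 1 above and 0, 0, 0 and 0 below. The shares of all genes, with TPM as deposited and under these scalings, are given above. MARS2, for mitochondrial methionine, rose at 3 h to 45.6 ± 2.13 TPM, against 29.1 ± 2.64 TPM in DMSO (0.63), and YARS2, for mitochondrial tyrosine, changed by 0.52 at 6 h.

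**Figure D4:**
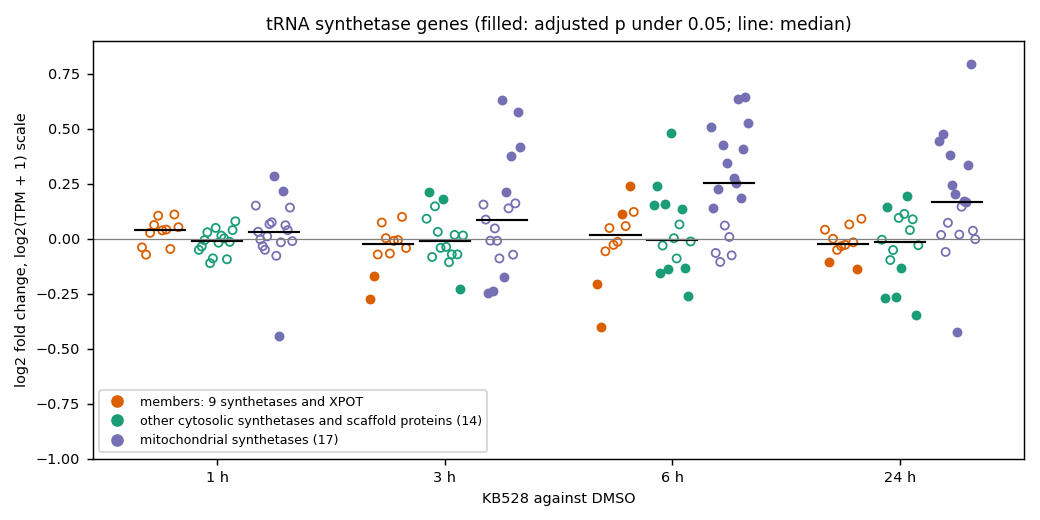
Log2 fold change against DMSO of the 10 member genes of tRNA charging and export, 14 other cytosolic synthetase and scaffold genes and 17 mitochondrial synthetase genes at 1, 3, 6 and 24 h of KB528, on the log2(TPM + 1) scale. Filled points passed at adjusted p under 0.05 and lines are medians; with TPM as deposited the member medians over time are 0.039, -0.026, 0.017 and -0.023, and the mitochondrial median is 0.25 at 6 h, where the median of all genes is 0.12.

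Members with and without the printed element can be set side by side. Of the 9 members with TGATGNAA in the window, 3 were called higher at 1 h (CHAC1, SLC3A2 and SLC7A1) and 0 lower, with a median log2 fold change of 0.067. Of the 22 tested members with a window and no match, 10 were higher and 1 lower, with a median of 0.11. At 6 h there were 3 higher and 3 lower among the 9, and 4 higher and 9 lower among the 22. Among all genes tested, 15% were higher and 7.57% lower at 1 h, and 44.4% and 24.5% at 6 h. The 9 include the synthetase genes AARS, CARS, IARS, MARS and NARS, so element and role cannot be told apart. Elements outside the window were not sought, so a member without a match may still have 1. These counts are descriptions, and the difference between the groups was not tested.

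Upstream of ATF4, 19 genes of eIF2 kinases, eIF2, its exchange factor eIF2B and its phosphatases gave 4, 9, 12 and 9 genes called above DMSO and 0, 3, 2 and 3 below over 1, 3, 6 and 24 h, with medians of 0.078, 0.12, 0.20 and 0.10. Of all genes, 44.4% were higher at 6 h and 56.1% at 24 h. With median-ratio scaling 4, 9, 9 and 3 were above DMSO and 2, 5, 5 and 9 below, and with spike-in scaling 1, 1, 9 and 1 above and 0, 1, 1 and 0 below. EIF2AK4, which encodes the amino acid sensing kinase GCN2, fell to 12.2 ± 0.631 TPM at 6 h, against 21.2 ± 1.996 TPM in DMSO (-0.74), and stood at 22.8 ± 0.543 TPM at 24 h. DNAJC3, which encodes an inhibitor of eIF2 kinases, rose by 0.61 at 3 h and 0.63 at 6 h, and fell by 0.30 at 24 h. EIF2B4, an eIF2B subunit gene, rose by 0.47 at 6 h.

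Of 22 tested genes of a list of other reported ATF4 targets there were 7, 4, 6 and 7 genes called above DMSO and 1, 11, 12 and 8 below over 1, 3, 6 and 24 h, with medians of 0.056, -0.11, -0.21 and -0.032. With median-ratio scaling 7, 4, 3 and 6 were above DMSO and 3, 10, 15 and 13 below, and with spike-in scaling 4, 1, 2 and 4 above and 1, 7, 5 and 1 below. Of all genes, 15%, 24.9%, 44.4% and 56.1% were above DMSO over the 4 times and 7.57%, 32%, 24.5% and 15.2% below. With median-ratio scaling 15.4%, 27.2%, 32.1% and 38.5% of all genes were above and 14.8%, 35.2%, 38.2% and 29% below. With spike-in scaling 2.9%, 3.42%, 34.3% and 20.3% were above and 1.02%, 21%, 8.29% and 5.47% below. ATF3, a bZIP factor gene, rose at 1 h to 70.2 ± 2.23 TPM, against 8.75 ± 1.22 TPM in DMSO (2.88), and was below DMSO at 6 h (-1.16). DDIT4, an inhibitor of mTORC1, moved the opposite way, with -1.65 at 1 h and 0.69 at 6 h. HERPUD1, which acts in ER-associated degradation, changed by 0.64 at 1 h and -0.70 at 6 h. Of 17 genes of the XBP1 and ATF6 arms of the unfolded protein response there were 5, 9, 10 and 0 genes called above DMSO and 0, 2, 4 and 14 below over 1, 3, 6 and 24 h, with medians of 0.12, 0.11, 0.14 and -0.49. With median-ratio scaling 5, 10, 4 and 0 were above DMSO and 0, 2, 6 and 15 below, and with spike-in scaling 1, 0, 3 and 0 above and 0, 1, 1 and 9 below. HSPA5, which encodes the ER chaperone BiP, reached 1061 ± 24.2 TPM at 3 h and stood at 403 ± 5.05 TPM at 24 h, against 710.3 ± 42.7 TPM in DMSO (0.58 and -0.81). DNAJB9 changed by 1.07 at 1 h and -0.67 at 24 h, and HSP90B1 by -0.77 at 24 h.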

How the data were processed

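Per the submitters' processing notes, STAR, featureCounts, FastQC and MultiQC and the build hg19 were used. Neither versions nor settings are given in the sources used here. TPM values came from a single deposited table of 26456 rows, 92 of them ERCC spike-ins, whose 15 columns each sum to 1000000. TPM keep no depth, so no interval from counts is given and count models were not used. Spike-in rows stayed out of the tests.

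The 12002 genes whose mean reached 1 TPM entered a single limma model (version 3.58.1, R 4.3.3; eBayes with a variance trend) of all 15 libraries in 5 groups, on the log2(TPM + 1) scale, with Benjamini-Hochberg adjustment within each contrast and a threshold of 0.05. Contrasts were each time against DMSO and against the time before. The step was tested on simulated data. The labels tie the replicate numbers to no shared source. Deviations of same-numbered libraries correlated above 0.1 in all 3 pairs for 6 h with DMSO (0.136 to 0.152) and in fewer for every other pair of groups. Promoter windows, 1 per gene at its first listed start, came from RefSeq (GRCh38.p14), and exon overlaps from GENCODE. Figures were made with Python 3.11.15, pandas 2.3.3 and matplotlib 3.10.9.

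The members and lists were chosen with earlier results of these data known. Values in every library are given for up to 4 members per role with the smallest F test p, and for ATF4 and DDIT3. Of each other list, the 3 genes with the smallest F test p are named, except that 2 are not reported here. Alternatives covered the pseudocount (0.1), the filter (5 TPM, or none), the scaling (median-ratio, spike-in, or spike-ins out of the total), the model (without the trend, with a replicate block, or fitted to the compared groups alone) and the omission of each library.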

Additional observations from a re-analysis of the deposited data

Results flagged for a closer look

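In 7 members KB528 had called effects against DMSO in opposite directions at 2 consecutive times, and the difference between those times passed the test as well. How many of all genes did so was not counted, so the 7 cannot be set against a background. The F test over the 5 groups passed 93.6% of all genes. CHAC1 was higher than DMSO at 1 h and lower at 3 h, and the 3 h over 1 h log2 fold change was -1.26. SLC38A2 was lower at 3 h and higher at 6 h (1.00 at 6 h against 3 h), and MTHFD2 was higher at 3 h and lower at 6 h (-0.35). CBS (0.81) and PSPH (0.76 at 24 h against 6 h) were lower at 6 h and higher at 24 h, and SLC3A2 (-0.55) and WARS (-0.38) were higher at 6 h and lower at 24 h. The opposite calls share the DMSO libraries, so the test between the times is not independent evidence. The calls against DMSO and the difference all passed under the alternatives run for SLC38A2 and CHAC1, and CHAC1 was left out by the filter of 5 TPM. At least 1 of the 2 calls against DMSO was lost under some alternative for CBS, WARS, PSPH, SLC3A2 and MTHFD2. The difference still passed under every alternative for CBS, WARS, PSPH and SLC3A2, and for MTHFD2 it was lost with spike-in scaling, which turned both signs against DMSO.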

How the results depend on the processing

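Of 126 member calls over 7 contrasts, 33 passed under every alternative that could be run and 93 were lost or turned under at least 1. With spike-in scaling 71 calls no longer passed, in the same direction, and 17 signs turned. A pseudocount of 0.1 changed no call, nor did a filter of 5 TPM, which left out CHAC1, SLC7A11, CTH and ALDH1L2. Spike-in scaling called 5 members above and 0 below DMSO at 1 h, 1 and 4 at 3 h, 3 and 2 at 6 h and 1 and 2 at 24 h, and between times 0 and 5 (3 h against 1 h), 11 and 1 (6 h against 3 h) and 5 and 4 (24 h against 6 h), where it called 0.675% and 17.2%, 61.3% and 1.93%, and 13.7% and 17% of all genes. The unaltered counts between times were 2 and 12, 5 and 17, and 14 and 8, where all genes had 15.2% and 31.8%, 42.3% and 13.7%, and 41% and 26% called. Median-ratio scaling called 6 members below DMSO at 1 h, 4 above and 24 below at 6 h, 25 below at 24 h, 4 higher at 3 h against 1 h, and 1 higher and 27 lower at 6 h against 3 h. Of all genes it called 14.8% below DMSO at 1 h, 32.1% above and 38.2% below at 6 h, 29% below at 24 h, and between times 23.2% higher (3 h against 1 h) and 25.9% higher and 29.8% lower (6 h against 3 h). With spike-ins out of the total there were 11 higher at 3 h and 2 at 6 h against 3 h, and with only the compared groups 0 lower at 1 h. Leaving out 1 library at a time gave 0 to 1 lower at 1 h, 1 to 2 higher at 3 h against 1 h and 2 to 5 at 6 h against 3 h. For spike-ins out of the total, the compared groups alone and the omission of libraries, shares of all genes are not given here. These counts of members therefore have no background. The cause of these shifts was not tested.

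Signs turned with median-ratio scaling for ASNS (-0.12), GARS (-0.12), SARS (-0.10), NARS (-0.049) at 6 h, TRIB3 (-0.18), PSAT1 (-0.11), XPOT (-0.096), AARS (-0.15), NARS (-0.12) at 24 h, and SHMT2 (-0.13), AARS (-0.087), WARS (-0.016), SARS (-0.091), NARS (-0.034), EPRS (-0.14), MARS (-0.10) at 6 h against 3 h. They turned with spike-in scaling for MTHFD2 (-0.057) at 3 h, MTHFD2 (0.0024), CEBPB (0.026) at 6 h, CEBPG (-0.013) at 3 h against 1 h, PSAT1 (0.050), PHGDH (0.28), PSPH (0.28), MTHFD2 (0.059), SLC7A5 (0.19), SLC3A2 (0.24), SLC1A5 (0.18), CEBPG (0.17), STC2 (0.036), CARS (0.17), CTH (0.051), CBS (0.010) at 6 h against 3 h and ATF4 (-0.086) at 24 h against 6 h. In all these either the unaltered or the rescaled value was called, and signs of members called in neither were not followed. With the replicate number as a block, calls above and below DMSO were 14 and 1 at 1 h, 7 and 9 at 3 h, 7 and 13 at 6 h and 8 and 7 at 24 h. The block ended the calls of CEBPB at 6 h and CARS at 24 h and added 2 between times (SLC7A1), and changed no other. Shares of all genes with the block are not given here. Of 30 same-numbered pairs across groups, 7 had correlated deviations above 0.1 (range -0.157 to 0.43), and 8 of 15 libraries correlated best with their own number, a hint from the data and not the design.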

Other observations

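Among 12 tested bZIP partners of ATF4 and C/EBP there were 4, 4, 8 and 6 genes called above DMSO and 1, 5, 3 and 4 below over 1, 3, 6 and 24 h, with medians of 0.087, 0.062, 0.23 and 0.13. With median-ratio scaling 4, 4, 4 and 4 were above DMSO and 1, 5, 4 and 6 below, and with spike-in scaling 3, 1, 4 and 2 above and 0, 2, 2 and 1 below. Of all genes, 15%, 24.9%, 44.4% and 56.1% were above DMSO over the same times and 7.57%, 32%, 24.5% and 15.2% below. Their shares under both scalings are given above. JUND, an AP-1 subunit gene, rose at 1 h to 396 ± 11.7 TPM, against 172 ± 15.4 TPM in DMSO (log2 fold change 1.202), and changed by -0.31 at 24 h. JUNB changed by 1.08 at 1 h and -0.20 at 24 h, and ATF3, which this list shares with the other reported ATF4 targets, is described above. Among 10 tested folate and one-carbon enzyme genes outside the members there were 1, 2, 4 and 6 genes called above DMSO and 0, 2, 3 and 2 below over 1, 3, 6 and 24 h, with medians of 0.058, -0.014, 0.062 and 0.26. With median-ratio scaling 1, 2, 2 and 5 were above DMSO and 0, 2, 5 and 4 below, and with spike-in scaling 0, 0, 1 and 3 above and 0, 2, 1 and 1 below. TYMS, the thymidylate synthase gene, rose at 24 h to 359 ± 0.891 TPM, against 238 ± 8.11 TPM in DMSO (0.59). AMT, of glycine cleavage, rose at 24 h (0.88).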
